A study of Mus musculus with 16 samples.

Results

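The genes that write, copy and remove DNA methylation were followed as a set of 9: the methyltransferase genes Dnmt1, Dnmt3a and Dnmt3b, the cofactor gene Dnmt3l, the maintenance factor gene Uhrf1, the dioxygenase genes Tet1, Tet2 and Tet3, and the DNA glycosylase gene Tdg. They were chosen by symbol from the 52636 Ensembl mouse gene IDs of a raw count table. All 9 were found, and all 9 were among the 12742 genes that passed a filter on low counts. The 16 libraries were total RNA, depleted of ribosomal RNA, from the line CRAFR26, which derives from mouse embryonic stem cells and was grown as the cell type the labels call RSC. Its medium held the WNT pathway inhibitor IWP2, LIF and the MEK inhibitor PD03. For 48 h before the experiment PD03 was replaced in every group by 250 nM of the FGF receptor inhibitor PD17. The hydroxylated tamoxifen 4OHT, at 250 nM, then switched on a c-RAF kinase construct, and through it ERK. Cells were taken before 4OHT (0h), 2 h (2h) and 4 h (4h) after it, and after 4 h of 4OHT followed by 2 h with a MEK inhibitor as well (rev). Each group held 4 libraries, 2 from clone 4 and 2 from clone 8. Each clone is 1 line, and the labels do not say that the 2 libraries of a clone came from separate cultures, so p-values measure the spread between these libraries. The rev cells were also cultured 2 h longer than the 4h cells, and no induced group of that age without the inhibitor is compared here.

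DNA methylation in mammals sits mainly on the cytosine of CpG pairs. DNMT3A and DNMT3B place it on unmethylated DNA, and DNMT3L, which has no activity of its own, binds and stimulates them in early embryos, germ cells and pluripotent cells. UHRF1 brings DNMT1 to newly copied DNA, where DNMT1 restores the pattern of the parent strand. TET1, TET2 and TET3 oxidise methylcytosine, and TDG excises the further oxidised bases so that repair can restore cytosine. In mouse pluripotent cells the FGF and MEK to ERK pathway is known to influence the expression of the DNMT3 genes, and MEK inhibition in culture goes with low DNA methylation.

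RefSeq start sites on GRCm38.p6 were found for all 9 genes, as 16 windows of 300 bases (250 before the start and 50 after). The windows of Tet2 and Dnmt3l are shown because these were the genes called between time points, and because they differ widely in CpG content. The sequences run 5′ to 3′ on the strand of the gene, and capitals mark each CpG. Tet2 has 1 window, chr3:133544341-133544640 on the minus strand, and Dnmt3l has 3 on the plus strand, chr10:78042037-78042336, chr10:78049592-78049891 and chr10:78055085-78055384.
Tet2, start 133544390: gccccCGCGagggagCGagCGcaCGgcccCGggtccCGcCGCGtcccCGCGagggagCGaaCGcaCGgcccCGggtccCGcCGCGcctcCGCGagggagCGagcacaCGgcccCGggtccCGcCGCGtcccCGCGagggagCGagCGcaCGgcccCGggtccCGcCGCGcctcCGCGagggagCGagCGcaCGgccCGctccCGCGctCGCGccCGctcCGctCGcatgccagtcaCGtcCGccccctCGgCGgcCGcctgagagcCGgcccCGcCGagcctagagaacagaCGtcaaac
Dnmt3l, start 78042287: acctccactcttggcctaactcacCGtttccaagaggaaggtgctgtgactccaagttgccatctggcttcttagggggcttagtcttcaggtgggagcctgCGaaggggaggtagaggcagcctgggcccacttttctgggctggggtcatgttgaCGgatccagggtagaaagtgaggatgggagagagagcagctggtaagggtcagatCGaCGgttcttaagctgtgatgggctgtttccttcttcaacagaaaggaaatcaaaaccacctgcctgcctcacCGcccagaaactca
Dnmt3l, start 78049842: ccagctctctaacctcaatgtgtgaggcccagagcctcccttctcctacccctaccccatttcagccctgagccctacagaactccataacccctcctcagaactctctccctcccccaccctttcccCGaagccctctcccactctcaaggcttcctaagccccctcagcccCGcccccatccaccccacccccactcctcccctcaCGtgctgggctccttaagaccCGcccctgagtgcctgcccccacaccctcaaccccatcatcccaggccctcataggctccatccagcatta
Dnmt3l, start 78055335: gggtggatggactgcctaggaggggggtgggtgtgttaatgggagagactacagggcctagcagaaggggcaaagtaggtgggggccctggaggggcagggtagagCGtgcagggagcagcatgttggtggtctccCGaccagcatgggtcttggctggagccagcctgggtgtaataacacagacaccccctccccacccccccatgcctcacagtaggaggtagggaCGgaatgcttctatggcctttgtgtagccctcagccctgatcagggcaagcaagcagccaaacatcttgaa
The Tet2 window holds 57 CpG, more than 99.8% of the 32851 RefSeq windows of this length, whose median is 7 (quartiles 3 and 20). The Dnmt3l windows hold 6, 4 and 3 CpG. Among the other members Dnmt3a had 46, 47 and 18, Dnmt1 had 33, 12 and 2, Uhrf1 had 12 and 33, and Dnmt3b had 30. Tdg held 26, Tet3 22 and Tet1 17. Both strands were searched for the letters of 5 motifs of signal-regulated factors. The ETS core CCGGAA was in 1 member window (Uhrf1) and in 14.9% of all windows, and the E-box CACGTG was in 3 (Dnmt3l, Tdg and Dnmt3a) and in 7.15% of all. In Dnmt3l that E-box is in the window of the start at 78049842. The cyclic AMP response element TGACGTCA was in 1 (Tdg) and in 1.79% of all. TGANTCA, the AP-1 motif, was in 0 of the 16 windows and 7.81% of all, and GCGTGGGCG, the EGR motif, in 0 and 0.612%. Gene counts add reads from every start, so they do not say which Dnmt3l start was used.

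The libraries held 4313599 to 10444126 counts. A group of 8 features, each over 1% of all counts, took 46.7% to 78.9% of a library, the most in clone 8 replicate 1 of rev. Levels below are in CPM, a gene's counts relative to the library total after scaling with edgeR's TMM factors, and 3 counts, taken as the floor, corresponded to between 0.21 and 0.908 CPM (counting error only). The pluripotency genes Pou5f1 and Sox2 were at 120 to 175 and 201 to 241 CPM, and Nanog at 111 to 722. Of 11 tested pluripotency genes, Lin28a, Pou3f1, Utf1 and Tdgf1 were called higher and Nanog lower at 4h against 0h, and all 5 in the opposite direction at rev against 4h. Of markers of other cells, 6 fibroblast genes summed to at most 4.54 CPM (S100a4 at 0 counts in all libraries), 5 primitive streak genes to at most 4.84, 6 primitive endoderm genes to at most 9.99 and 5 neural genes to at most 25.1. The 6 trophoblast markers summed to 33.5 to 82.2 CPM, of which Tfap2c, which pluripotent cells also express, averaged 42.8. Of the tested markers of other cells, Eomes and Pax6 were called higher and Tfap2c and Gsc lower at 4h against 0h, and Eomes (2.1-fold), Hand1, Dab2 (2.41-fold) and Pax6 higher and Sox1 lower at 2h. Rev had Eomes (1.71-fold), Hand1, Dab2 (2.84-fold) and Pdgfra (2.56-fold) above 0h, and Dab2 and Gsc above and Pax6 below 4h. The part of these markers in the members' changes was not tested. Induction was visible in a list of 17 ERK response genes, 16 of them tested: 14 were called higher at 2h and 14 at 4h against 0h, and 13 lower at rev against 4h. Spry4, a feedback inhibitor, and Egr1, an immediate-early factor, rose most at 4h among them, with log2 changes of 5.78 and 5.65 (SE 0.348 and 0.387, edgeR adjusted p 5.48e-09 and 2.83e-08). On the third principal component of the 500 most variable genes (8.57% of variance), all 0h and 4h libraries scored above 0 (3.56 to 11) and all 2h and rev libraries below it (-12.1 to -3.27). The labels name no batch that matches this split. Comparisons of 2h or rev with 0h or 4h cross it, and its part in them was not tested, whereas 4h against 0h and rev against 2h lie on a single side.

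Levels of the 9 genes were set side by side as CPM per kilobase of annotated exon, which scales for length. That length counts every annotated exon of a gene (16642 bases for Dnmt3a, 5106 for Dnmt3b). A transcript may hold fewer bases, so the order depends on this choice of length. The 16-library means were 45.9 ± 4.72 (SD, n = 16) for Uhrf1, 25.8 ± 4.36 for Tet1, 24.7 ± 1.21 for Dnmt1, 15.5 ± 2.17 for Tet2 and 13.2 ± 6.57 for Dnmt3l. Lower down came Dnmt3b at 5.37 ± 2.58, Dnmt3a at 2.46 ± 0.464, Tdg at 1.87 ± 0.372 and Tet3 at 1.01 ± 0.208. The maintenance pair and the oxidases Tet1 and Tet2 were therefore above the catalytic de novo genes per length in every library. The ranges over libraries did not overlap between Uhrf1 (39.4 to 55.5) and Tet1 (20.8 to 35.9), nor between Dnmt1 (22.7 to 26.6) and Tet2 (11.7 to 19.8). All other neighbours in the order overlapped, so Tet1 and Dnmt1, for example, are not separated. Dnmt3l had the widest range as a difference, from 5.67 to 24.6 CPM per kilobase, though Dnmt3b (2.59 to 11.6) was wider as a ratio. On this scale Dnmt3l lay above Dnmt3a (2.09 to 3.74) in all libraries. Without length scaling the 16-library means were 40.9 CPM for Dnmt3a, 39.3 for Dnmt3l and 27.4 for Dnmt3b.

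**Figure D1:**
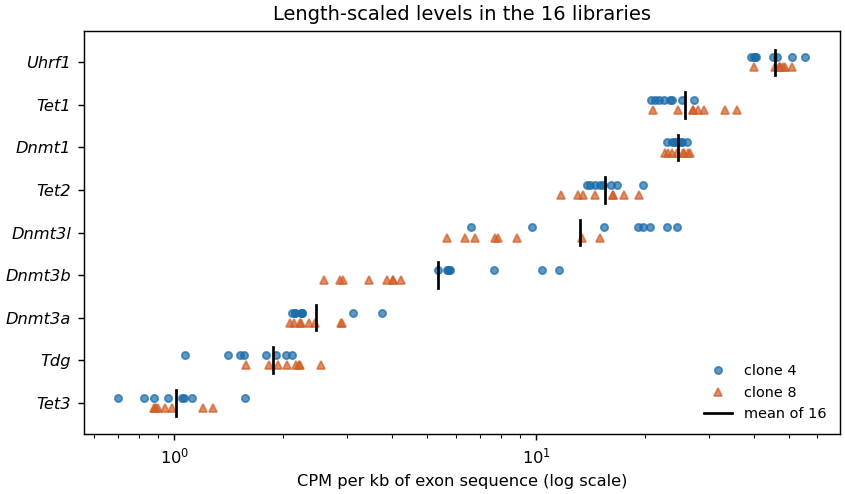
Length-scaled levels of the 9 genes. The x axis is CPM per kilobase of exon on a log scale, each point is a library (blue circles clone 4, orange triangles clone 8) and black bars are means of 16, running from 45.9 for Uhrf1 to 1.01 for Tet3. Dnmt3b and Dnmt3l spread most, with clone 8 libraries mostly to the left.

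The de novo cofactor gene Dnmt3l (ENSMUSG00000000730, chromosome 10, 78041947 to 78063622, plus strand) was the member that changed most with induction. Clone 4 libraries held 19.8 and 29.1 CPM at 0h, 45.9 and 57.1 at 2h, 73.5 and 62.0 at 4h, and 59.3 and 68.6 at rev. Clone 8 libraries held 26.5 and 23.4 CPM at 0h, 22.9 and 19.0 at 2h, 44.7 and 40.1 at 4h, and 17.0 and 20.2 at rev. All 4 libraries of 4h lay above all 4 of 0h, while the 2h and rev values of the 2 clones lay on opposite sides of their own 0h values. Over both clones the means were 24.7 ± 4.01 CPM (SD, n = 4) at 0h and 55.1 ± 15.5 at 4h. Dnmt3l rose 2.09-fold at 4h against 0h (log2 change 1.06, SE 0.236, edgeR adjusted p 0.00571). The call was kept with each of the 16 libraries left out. Without the clone as a covariate the change was 1.15 and the adjusted p 0.128. In bulk RNA, more cells expressing a gene and more RNA per cell cannot be told apart. Dnmt3l was also called higher at 4h than at 2h, by 0.70 (SE 0.225, edgeR adjusted p 0.0474). This second call was not made by DESeq2 (adjusted p 0.105) or with library totals in place of TMM (0.17). It was also lost when single libraries were left out: each of the 4 libraries of 4h, each of 2h except clone 4 replicate 2, clone 8 replicate 2 of 0h, or clone 4 replicate 1 of rev (edgeR adjusted p 0.0521 to 0.125). Against 0h the log2 change was 0.36 at 2h (SE 0.237, adjusted p 0.319) and 0.55 at rev (SE 0.242, adjusted p 0.152), and rev against 4h gave -0.51 (SE 0.23, adjusted p 0.171), none of them called by edgeR. Exons of Dnmt3l share 2.24% of their length with Aire on the opposite strand, and the processed copy Dnmt3l-ps1 had at most 4 counts in a library.

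Dnmt3a (ENSMUSG00000020661, chromosome 12, 3806007 to 3914443, plus strand), a catalytic de novo enzyme gene, had no call over both clones. Its means were 42.7 ± 6.15 CPM (SD, n = 4) at 0h, 37.8 ± 2.11 at 2h, 46.7 ± 12.7 at 4h and 36.2 ± 2.06 at rev. The wide SD at 4h came from the clones: clone 4 held 62.3 and 51.8 CPM there and clone 8 held 37.2 and 35.7. At 0h clone 4 held 37.4 in both libraries and clone 8 held 48.2 and 47.9, so the order of the clones was the opposite. The log2 change over both was 0.11 at 4h against 0h (SE 0.144, edgeR adjusted p 0.674). Dnmt3b (ENSMUSG00000027478, chromosome 2, 153649450 to 153687730, plus strand), the other catalytic gene, had means of 27.5 ± 18.4, 23.4 ± 7.24, 35.1 ± 18.1 and 23.7 ± 5.41 CPM (SD, n = 4) at 0h, 2h, 4h and rev. Clone 4 libraries were at 29.2 and 52.9 at 0h, 29.6 and 29.3 at 2h, 59.1 and 39.1 at 4h, and 29.0 and 27.4 at rev. Those of clone 8 were lower throughout, at 14.6 and 13.2, 19.8 and 14.9, 20.5 and 21.6, and 20.6 and 17.7. Against 0h the log2 change of Dnmt3b at 4h was 0.40 over both clones (SE 0.193, edgeR adjusted p 0.188). Without clone 4 replicate 2 of 0h it was 0.72 (edgeR adjusted p 0.00908). Fitted alone, clone 4 gave 0.26 and clone 8 gave 0.58 (edgeR adjusted p 0.372 and 0.0219). At 4h against 2h the 4h values lay above the 2h values in both clones, with a log2 change of 0.52 over both (SE 0.19, edgeR adjusted p 0.0767). Rev against 4h gave -0.53 (SE 0.198, edgeR adjusted p 0.0941), with no overlap in clone 4 and overlap in clone 8.

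The maintenance genes stayed within narrow ranges. Dnmt1 (ENSMUSG00000004099, chromosome 9, 20907209 to 20959888, minus strand) lay between 167 and 196 CPM in all 16 libraries. Its means were 182 ± 5.57, 179 ± 12.3, 185 ± 7.46 and 182 ± 11.8 CPM (SD, n = 4) at 0h, 2h, 4h and rev. At 4h against 0h its log2 change was 0.03, with an interval of 2 SE from -0.12 to 0.17 (edgeR adjusted p 0.868), so a change of the size seen for Dnmt3l lay outside that interval. Uhrf1 (ENSMUSG00000001228, chromosome 17, 56303321 to 56323486, plus strand) had means of 203 ± 10.2, 186 ± 18.2, 214 ± 17.6 and 179 ± 17.7 CPM. At rev it was at 173, 168, 171 and 206 CPM and at 4h at 237, 198, 218 and 202, so only clone 8 replicate 2 of rev reached the 4h range. The log2 change of Uhrf1 at rev against 4h was -0.25 (SE 0.0869, edgeR adjusted p 0.0705). DESeq2 gave -0.26 and an adjusted p of 0.0483, and edgeR without clone 8 replicate 2 of rev also called it.

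Tet2 (ENSMUSG00000040943, chromosome 3, 133463679 to 133545139, minus strand) was the oxidase gene called at 2h. Its libraries were at 238, 247, 222 and 197 CPM at 0h, 272, 334, 295 and 325 at 2h, 253, 282, 246 and 276 at 4h, and 233, 258, 276 and 228 at rev. All 4 values of 2h lay above all 4 of 0h, and those of 4h and rev lay between or across. Tet2 rose at 2h against 0h by 0.44 on the log2 scale, 1.36-fold (SE 0.091, edgeR adjusted p 0.00304), from 226 ± 21.9 to 306 ± 28.0 CPM (SD, n = 4). With library totals the change was 0.55 and the adjusted p 0.224, while the median of all genes moved to 0.11. The 4h change against 0h was 0.23 (SE 0.0914, edgeR adjusted p 0.109), and rev against 2h gave -0.30 (SE 0.0909, edgeR adjusted p 0.101, DESeq2 below the threshold). The call was kept with each of the 16 libraries left out. Fitted alone, the change was 0.31 (SE 0.113, edgeR adjusted p 0.0519) in clone 4 and 0.56 (SE 0.106) in clone 8, and the difference between the clones was not called (0.24, SE 0.162, edgeR adjusted p 0.39).

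Tet1 (ENSMUSG00000047146, chromosome 10, 62804570 to 62908996, minus strand), the most counted member, had means of 386 ± 39.0, 431 ± 61.4, 429 ± 95.1 and 348 ± 46.5 CPM (SD, n = 4). In each clone both rev values lay below both 4h values, with 322 and 329 against 349 and 362 in clone 4 and 418 and 325 against 452 and 554 in clone 8. The log2 change over both clones was -0.29 (SE 0.105, edgeR adjusted p 0.0886). Tet3 (ENSMUSG00000034832, chromosome 6, 83362373 to 83459084, minus strand), better known from the oocyte and from differentiated cells, was low at 11.7 to 26.1 CPM and was not called between groups, with a change of 0.26 at 4h against 0h (SE 0.184, edgeR adjusted p 0.393). Tdg (ENSMUSG00000034674, chromosome 10, 82629828 to 82650799, plus strand), the glycosylase gene, was the least counted, at 5.73 to 13.7 CPM and 28 to 180 counts, and at this depth its 2h change of 0.30 (SE 0.161, edgeR adjusted p 0.216) was not separated from 0. Of its exon length 6.83% is shared with Glt8d2 on the opposite strand, and the sources used here do not say whether counting used strand.

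**Figure D2:**
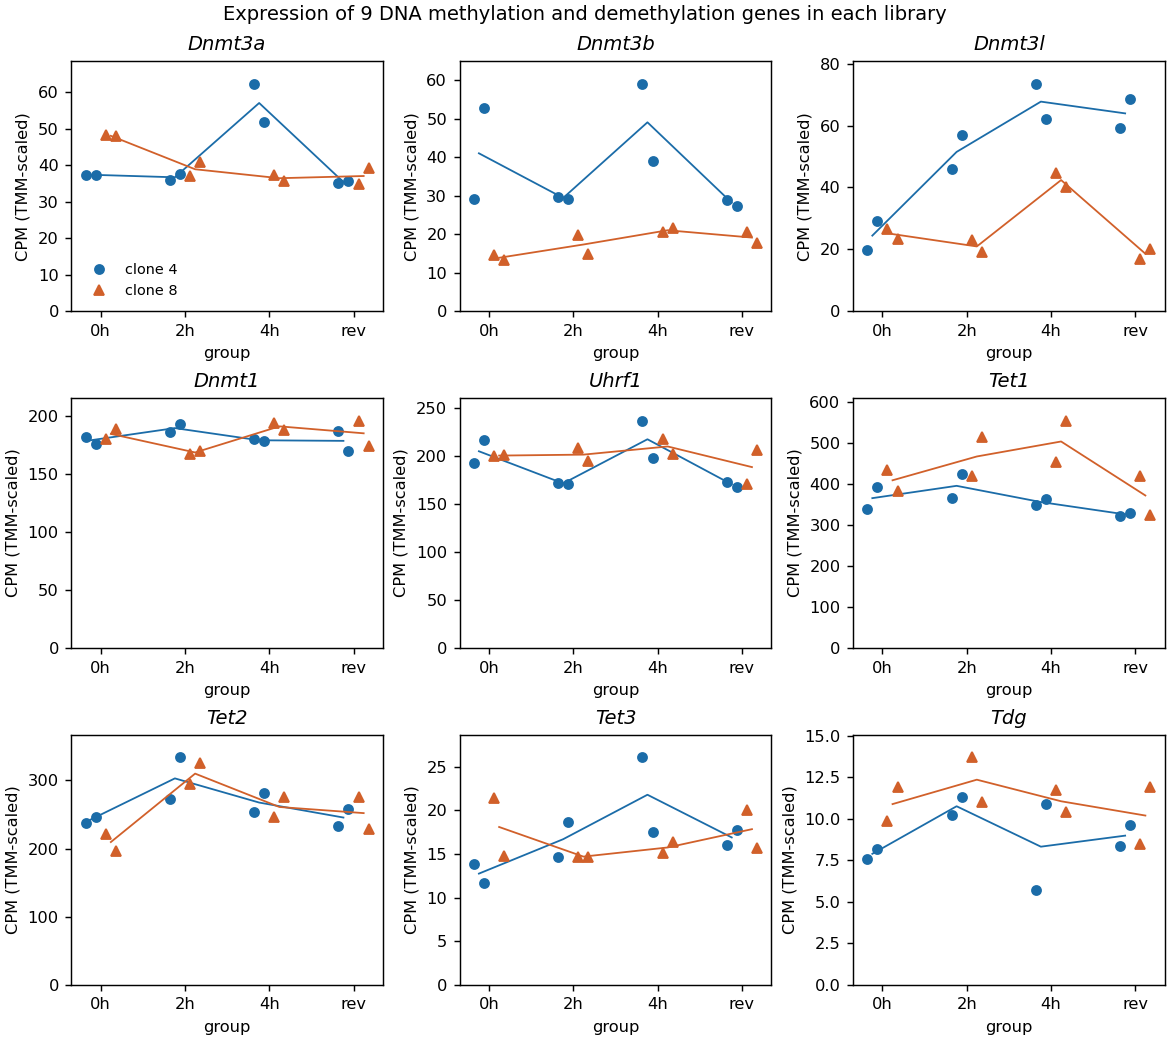
CPM of each of the 9 genes in every library. The x axis is the group, the y axis TMM-scaled CPM starting at 0, blue circles are clone 4 and orange triangles clone 8, and lines join the means of 2 libraries. Dnmt3l in clone 4 stays high at rev (59.3 and 68.6) where clone 8 is at 17.0 and 20.2, and Dnmt1 lies between 167 and 196 throughout.

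Counted over the set, calls were few. At 2h against 0h 1 of the 9 was called (Tet2, higher), where 9.49% of all tested genes were called higher and 7.48% lower. At 4h against 0h 1 was called (Dnmt3l, higher), with 7.35% and 5.56% of all genes. At 4h against 2h 1 was called (Dnmt3l, higher), with 5.78% and 6.36% of all genes. These shares are near the background, and no statement about the set as a whole rests on them. The median log2 change of the 9 was -0.01 at 2h and 0.14 at 4h against 0h, beside 0.00 and -0.01 for all genes. At rev against 4h edgeR called 0 of 9, where 4.50% of all genes were higher and 5.10% lower. Of the 9, 5 had an unadjusted p under 0.05 there, all lower (Dnmt3a, Dnmt3b, Dnmt3l, Tet1 and Uhrf1), where 12.7% of all genes were lower at that threshold and 25.1% passed it in either direction. DESeq2 called 1 (Uhrf1). The median there was -0.25, beside 0.00 for all genes. Leaving out clone 4 replicate 2 of 0h, clone 8 replicate 1 or 2 of 4h, or clone 8 replicate 2 of rev gave 1 call each (Dnmt3b, Dnmt3a, Dnmt3a and Uhrf1). At rev against 0h edgeR called 0 of 9, with 5.51% of all genes higher and 4.94% lower. Dnmt3l alone had an unadjusted p under 0.05 there, as did 26.3% of all genes, and DESeq2 called 0. At rev against 2h edgeR again called 0, with 0.769% of all genes higher and 1.01% lower. Unadjusted, 2 had a p under 0.05 (Tet1 and Tet2), as did 15.3% of all genes, and DESeq2 called 1 (Tet2). The comparisons share their 0h, 2h, 4h and rev libraries and are not independent.

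**Figure D3:**
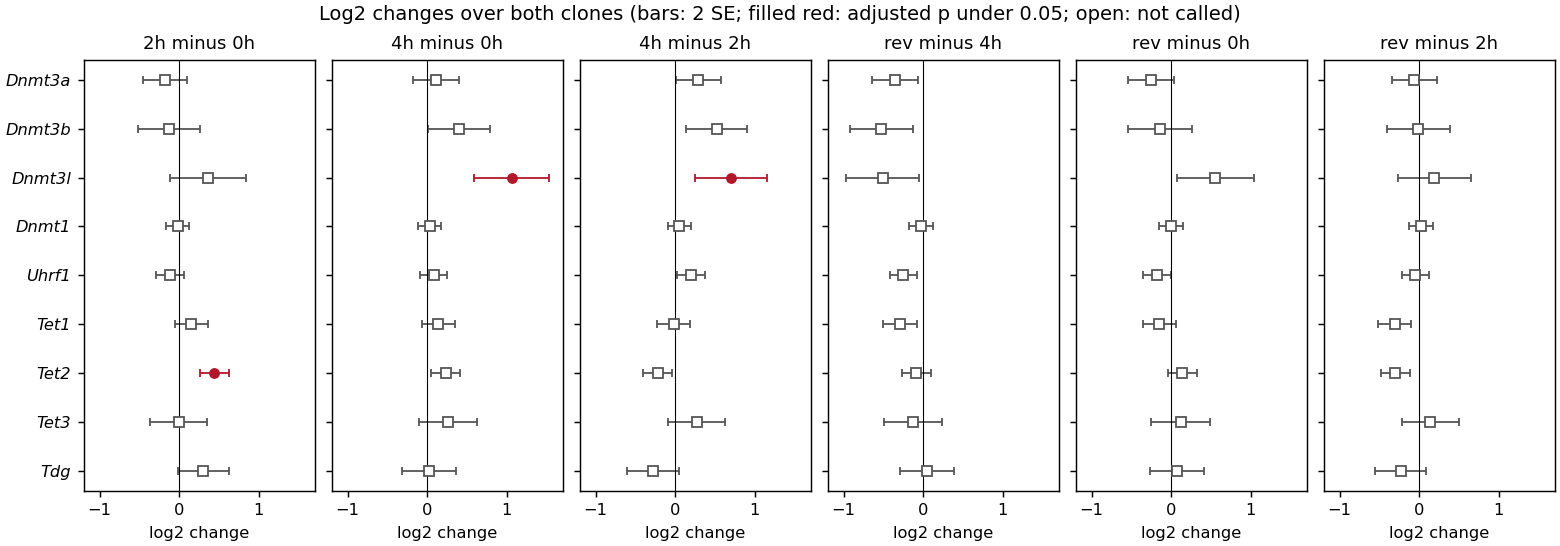
Log2 changes of the 9 genes in the 6 comparisons over both clones. The x axis is the log2 change from the edgeR fit, bars span 2 SE on each side, and filled red points have an adjusted p under 0.05. The called points are Tet2 at 2h (0.44) and Dnmt3l at 4h against 0h (1.06) and against 2h (0.70).

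The clones differed in the level of 4 of the 9 genes, over the 4 groups. Dnmt3b was lower in clone 8 than in clone 4, with a log2 difference of -1.04 (SE 0.139, edgeR adjusted p 7.62e-06), with 36.9 ± 12.4 CPM (SD, n = 8) in clone 4 and 17.9 ± 3.23 in clone 8. Its 8 values in clone 4 (27.4 to 59.1) did not overlap the 8 in clone 8 (13.2 to 21.6). Dnmt3l was lower in clone 8 by 0.93 (SE 0.167, edgeR adjusted p 0.0002), although at 0h the clones overlapped. Tet1 was higher in clone 8 by 0.27 (SE 0.0744, edgeR adjusted p 0.00717) and Tdg by 0.33 (SE 0.118, edgeR adjusted p 0.034), and neither was called with library totals (adjusted p 0.169 and 0.117). The Tdg call was also lost when any of 9 single libraries was left out (edgeR adjusted p 0.0511 to 0.0815), among them 3 of 0h, 2 of 2h, 2 of 4h and 2 of rev. Of all tested genes 17.1% were called higher and 17.8% lower in clone 8, so 2 and 2 of 9 is near that share. Each clone is 1 line, and this is a comparison of these lines.

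Whether induction acted alike in the clones was tested by subtracting the change in clone 4 from that in clone 8. At 2h against 0h 1 of the 9 differed, lower in clone 8, beside 5.01% of all genes lower and 2.93% higher. This was Dnmt3l, with a difference of -1.31 (SE 0.211, edgeR adjusted p 0.000108). Fitted alone, clone 4 gave a log2 change of 1.04 (SE 0.157) and clone 8 one of -0.26 (SE 0.121). Dnmt3b lay the other way and just missed the threshold, with a difference of 0.81 (SE 0.267, edgeR adjusted p 0.0546). It was called without the filter on low counts (0.87, edgeR adjusted p 0.00207) and with library totals (1.39, edgeR adjusted p 0.0223). At 4h against 0h 3 of the 9 differed, all lower in clone 8, beside 3.69% of all genes lower and 2.03% higher. Dnmt3a had a difference of -1.02 (SE 0.159, edgeR adjusted p 4.31e-05), made of 0.61 (SE 0.125) in clone 4 and -0.40 (SE 0.101) in clone 8. Its libraries did not overlap between 0h and 4h in either clone, and the directions were opposite. Tet3 had a difference of -1.08 (SE 0.262, edgeR adjusted p 0.00838), with 0.83 (SE 0.194) in clone 4 and -0.24 (SE 0.158) in clone 8, on 66 to 210 counts. For Dnmt3l the difference at 4h was -0.70 (SE 0.21, edgeR adjusted p 0.0423), with 1.45 (SE 0.157) in clone 4 and 0.77 (SE 0.118) in clone 8.

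At rev against 4h 2 of the 9 differed between the clones, beside 6.30% of all genes higher and 6.89% lower in clone 8. Dnmt3l fell more in clone 8, by a difference of -1.07 (SE 0.208, edgeR adjusted p 0.000572): the change was -1.16 (SE 0.134) in clone 8, back to 17.0 and 20.2 CPM, and -0.08 (SE 0.137) in clone 4, where the level stayed at 59.3 and 68.6. Dnmt3a went the other way, with a difference of 0.75 (SE 0.162, edgeR adjusted p 0.00169), from -0.69 (SE 0.119) in clone 4 and 0.04 (SE 0.11) in clone 8. In clone 4 Dnmt3a was thus at 35.1 and 35.7 CPM at rev, after 62.3 and 51.8 at 4h. Clone 8 replicate 1 of rev was the library in which the features over 1% of counts took the largest share. Without it the 2 differences were -0.97 and 0.82.

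Several of these differences rested on few libraries. The 4h difference of Dnmt3l was lost by DESeq2 (adjusted p 0.0997) and when any of 8 single libraries was left out (edgeR adjusted p 0.0503 to 0.327): clone 4 replicate 1 and both clone 8 libraries of 0h, clone 4 replicate 1 and both clone 8 libraries of 4h, and both clone 4 libraries of rev. That of Tet3 was lost without clone 4 replicate 2 or clone 8 replicate 1 of 0h, or without replicate 1 of either clone at 4h (edgeR adjusted p 0.0539 to 0.328). The rev difference of Dnmt3a was lost without clone 4 replicate 1 of 4h (0.59, edgeR adjusted p 0.0518). With library totals 5 of the 6 differences were not called, and the exception was Dnmt3l at rev (-1.73, edgeR adjusted p 0.000595). Under that scaling the median of all genes moved by 0.56 at 2h, 0.35 at 4h and -0.67 at rev. ERK response genes differed between the clones as well: 10 of 16 had a lower change in clone 8 at 4h (median -1.78) and 6 of 16 at 2h (median -0.94, 1 higher). For rev against 4h 8 of 16 had a higher change in clone 8 (median 1.25), that is a smaller fall, while Dnmt3l fell more there. Their part in the differences of Dnmt3l, Dnmt3a and Tet3 was not tested.

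**Figure D4:**
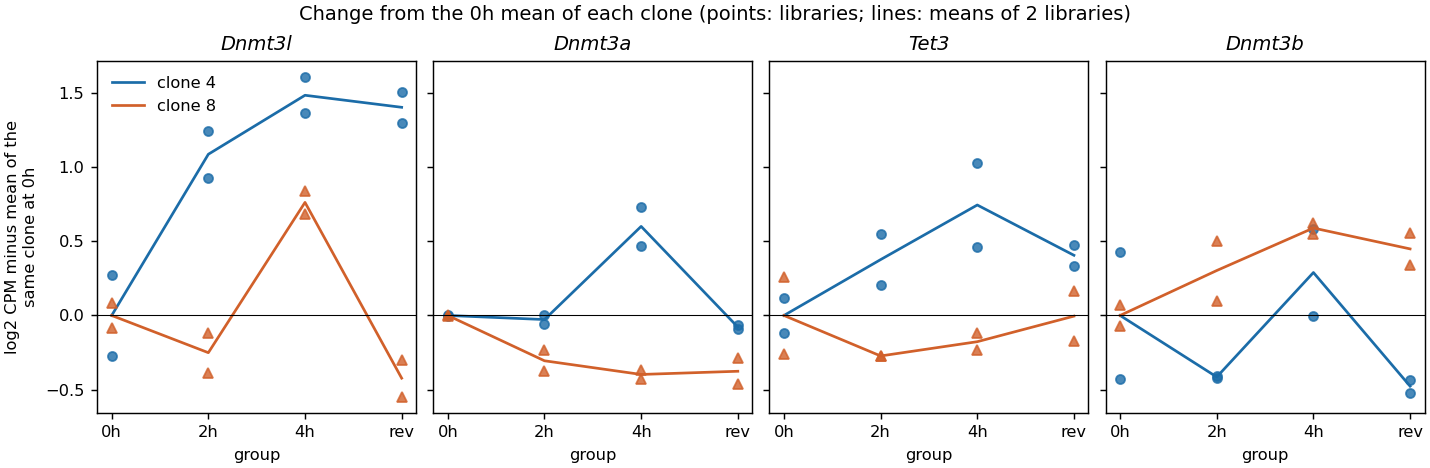
Changes of Dnmt3l, Dnmt3a, Tet3 and Dnmt3b within each clone. The y axis is log2 CPM minus the 0h mean of the same clone, the x axis the group, points are libraries and lines the means of 2. Dnmt3a at 4h lies above 0 in clone 4 and below 0 in clone 8, where 2h and rev lie below 0 as well. Dnmt3l at rev keeps its 4h level in clone 4 only, among these 2 clones.

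Partners of the methyltransferases were read from a list of 17 genes, 16 of them tested. At 4h against 0h 5 were called higher and 1 lower, and at rev against 4h 1 higher and 4 lower, with medians of 0.10 and -0.19 beside -0.01 and 0.00 for all genes. Of all genes 7.35% and 5.56% were called higher and lower in the first of these, and 4.50% and 5.10% in the other. Prdm14, which represses Dnmt3b and Dnmt3l in naive cells, went from 28.8 ± 6.66 CPM (SD, n = 4) at 0h to 13.9 ± 7.71 at 4h (log2 change -1.12, SE 0.215, edgeR adjusted p 0.00198), and rose at rev against 4h by 0.94 (SE 0.217, adjusted p 0.00896). The change of Prdm14 at 4h was less negative in clone 8, by 1.05 (SE 0.242, edgeR adjusted p 0.00538). Zfp57, which protects methylation at imprinted loci, went the opposite way: it rose at 4h by 0.49 (SE 0.121, edgeR adjusted p 0.0106) and fell at rev against 4h by 0.68 (SE 0.122, adjusted p 0.00145). Hells, a remodeller needed for methylation of repeats, rose at 4h by 0.39 (SE 0.0913, edgeR adjusted p 0.00826), and Pcna, the replication clamp, by 0.35 (SE 0.0704, adjusted p 0.00281). At rev against 4h Ehmt2 and Cxxc1 were called lower as well (-0.69 and -0.36, edgeR adjusted p 0.0112 and 0.0139). At 2h against 0h 9.49% of all genes were called higher and 7.48% lower. Of the list 1 was higher (Hells, 0.28) and 3 lower (Prdm14 at -0.67, Ehmt2 at -0.64 and Cdca7 at -0.30). With each of the 16 libraries left out in turn the Hells call was lost 9 times and that of Prdm14 at 2h 4 times. Ehmt2, a histone H3 lysine methyltransferase, stood at 66.1 ± 6.74, 42.2 ± 5.12, 68.5 ± 16.1 and 43.5 ± 11.2 CPM (SD, n = 4) at 0h, 2h, 4h and rev, a course that follows the split of the third component. At 4h against 2h 3 were higher (Ehmt2 at 0.69, Cxxc1 at 0.44, Cdca7 at 0.34) and 1 lower (Uhrf2 at -0.37, lost in 5 of the 16). Of all genes 5.78% were called higher and 6.36% lower there. At rev against 0h 2 were lower (Ehmt2 at -0.64, Kdm1a at -0.28), lost in 3 and 2 of the 16. The shares of all genes called there were 5.51% higher and 4.94% lower. The rev calls against 4h were lost in 3 (Ehmt2) and 1 (Cxxc1). In clone 8 alone the rev calls of Ehmt2, Zfp57 and Cxxc1 against 4h were not made. Nor were those of Ehmt2 at 4h against 2h and rev against 0h. For rev against 4h the change differed between the clones in 4 of the 16 (Dppa3, Prdm14, Ehmt2 and Zfp57). Of all genes 6.30% had a higher and 6.89% a lower change in clone 8 there. With library totals none of the 2h calls, and of the named 4h calls against 0h the fall of Prdm14 alone, was made.

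The list of TET partners and interacting factors held 12 genes, 11 of them tested. At 2h against 0h 2 were higher (Zscan4c at 1.42, from a family of near-identical copies that counting can split, and Gadd45a at 0.77) and 1 lower (Gadd45b at -0.56), beside 9.49% and 7.48% of all genes. With a library left out the calls of Zscan4c and Gadd45b were lost in 4 and 5 of 16 fits. DESeq2 did not call Zscan4c. Gadd45b was not called in clone 4 alone or with a replicate block. Without a clone covariate neither was called. Gadd45a, a stress gene proposed to act in active demethylation, was also higher at 4h, by 0.86 (SE 0.223, edgeR adjusted p 0.0143), on 3.50 ± 1.22 CPM at 0h and 6.79 ± 3.82 at 4h (SD, n = 4), and was lower at rev than at 4h (-0.77). Its 2h, 4h and rev calls were each lost with at least 1 of the 16 libraries left out, and 19.1% of its exon length overlaps an antisense gene. None of these Gadd45a calls was made in clone 8 alone, without a clone covariate or with library totals. Ogt, whose product binds TET proteins and adds N-acetylglucosamine to proteins, fell at rev against 4h by 0.40 (SE 0.0845, edgeR adjusted p 0.00454) and against 0h by 0.39 (SE 0.0844, adjusted p 0.00671). Neither Ogt call was made in clone 4 alone, without a clone covariate or with library totals. At rev against 4h 1 of the list was higher (Gadd45b, 0.64) and 2 were lower (Gadd45a and Ogt). The Gadd45b call there was lost in 5 of 16 fits and in clone 8 alone. Of all genes 4.50% were called higher and 5.10% lower in that comparison. At rev against 2h 1 was called (Gadd45b, higher by 0.96), beside 0.769% of all genes higher and 1.01% lower.

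Base excision repair genes, which act after TDG, were 14, all tested. At 2h against 0h 2 were called, both lower: Xrcc1, a repair scaffold, fell by 0.51 (SE 0.11, edgeR adjusted p 0.00376) and Lig3, its ligase, by 0.26 (SE 0.0887, adjusted p 0.0456). That is 2 of 14, where 7.48% of all genes were called lower and 9.49% higher. At rev against 0h Apex1 was called higher (0.38), and Neil2 (-1.50) and Lig3 (-0.31) were among those called lower. Genes on the opposite strand overlap 25.1% of Lig3 exon sequence and 61.7% of that of Apex1. The Lig3 calls and that of Apex1 were lost in 10, 6 and 10 of the 16 fits with a library left out. At rev against 4h 1 was called (Parp1, at -0.25), lost in 6 of those fits, beside 4.50% of all genes higher and 5.10% lower. At 4h against 0h edgeR called 0 of 14, with 3 at an unadjusted p under 0.05, as were 27.9% of all genes, and 1 by DESeq2 (Parp1). Readers of methylated DNA numbered 9. At 2h against 0h 3 were called, all lower, Zbtb4 at -0.97, Zbtb38 at -0.54 and Mbd6 at -0.44, beside the same 7.48% of all genes. Of these only the call of Zbtb38 (SE 0.111, edgeR adjusted p 0.00282) was kept in all 16 fits with a library left out. In the other 5 comparisons edgeR and DESeq2 each called 0 of the 9 readers, with 2 to 4 at an unadjusted p under 0.05, where 15.3% (rev against 2h) to 28.7% (4h against 2h) of all genes were.

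The supply of methyl groups was read from 16 genes of the S-adenosylmethionine and folate cycles. At 2h against 0h 2 of the 16 were called, both lower, beside 7.48% of all genes lower and 9.49% higher. Mat2b, a regulatory subunit of S-adenosylmethionine synthetase, fell there by 0.41 (SE 0.107, edgeR adjusted p 0.0131). The Mat2b call was not made in clone 8 alone or with library totals. At 4h against 0h Tdh was called higher (0.59). Tdh, the threonine dehydrogenase that feeds one-carbon units in mouse pluripotent cells, was lower at rev than at 4h (-0.61), and these Tdh calls were lost in 5 and 6 of the 16 fits with a library left out. The change of Tdh at rev against 4h differed between the clones by edgeR and by DESeq2. It was not called in clone 4 alone, and ran from -1.16 to -0.10 over the alternative settings. Mthfd2, a mitochondrial folate enzyme, was lower at rev than at 0h by 0.71 (SE 0.111, edgeR adjusted p 0.000604), and Mat2a, the catalytic synthetase subunit, was higher by 0.49 (SE 0.1, adjusted p 0.0043). Mthfd2 was also called lower at rev against 4h (-0.45) and 2h (-0.50), but these calls were lost in 3 and 5 of the 16 fits and in clone 8 alone.

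Genes of the germ line whose promoters are methylated in somatic cells made a list of 12, of which 9 were tested. At 2h, 4h and rev against 0h the same 2, Dazl and Sycp1, were the genes called, both higher, where 9.49%, 7.35% and 5.51% of all genes were called higher. Dazl, an RNA-binding protein of germ cells, was at 9.95 ± 3.42 CPM (SD, n = 4) at 0h, 20.8 ± 7.13 at 2h, 18.5 ± 2.81 at 4h and 21.8 ± 3.70 at rev. Its log2 changes were 1.05, 0.89 and 1.13 (SE 0.17, 0.178 and 0.175, edgeR adjusted p 0.00044, 0.00272 and 0.00057). The 4h change of Dazl was smaller in clone 8, by a difference of -0.91 (SE 0.259, edgeR adjusted p 0.0299), and was not called in clone 8 alone (0.47). DESeq2 did not call that difference between the clones. Sycp1, of the synaptonemal complex, went from 4.54 ± 0.243 CPM at 0h to 8.35 ± 2.43, 7.15 ± 0.785 and 8.65 ± 0.913, with log2 changes of 0.90, 0.65 and 0.93 (edgeR adjusted p 0.00276, 0.0337 and 0.00433). The Sycp1 call at 4h was lost in 7 of the 16 fits with a library left out, and the 3 comparisons share the 0h libraries. At 4h against 2h 1 was called (Tuba3a, higher by 0.43, lost in 5 of the 16 fits), beside 5.78% of all genes higher and 6.36% lower. At rev against 4h edgeR and DESeq2 called 0 of the 9, with 2 lower at an unadjusted p under 0.05. By edgeR 4.50% of all genes were called higher and 5.10% lower there, and 12.7% were lower at the unadjusted threshold.

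Genes whose course was most like that of a member were found among 8058 genes by the correlation of log2 CPM means over the 8 combinations of group and clone, which share libraries and depth. For Dnmt3l they were Ogfr (r = 0.971), Abcg2 (0.966) and Exosc10 (0.964). For Tet2 they were Atl2 (0.954), Vti1a (0.938) and Api5 (0.926), and for Uhrf1 Rbbp4 (0.994), Use1 (0.969) and Trim32 (0.964). These are the highest of many correlations over 8 points and are given as a description.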

How the data were processed

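RNA was measured by rRNA-depleted sequencing in 16 libraries of CRAFR26 cells, 4 groups of 4, grouped by the sample titles. The authors deposited raw whole-number counts for 52636 Ensembl gene IDs, with no normalization. Reads were processed with bcl2fastq 2.19.1 and STAR 2.5.3a on mm10, per the submitters' processing notes; the counting program, annotation and strand setting are not given in the sources used here. Symbols, coordinates (1-based) and exon lengths came from GENCODE M21 on GRCm38 by gene ID, and 52403 IDs matched. Promoter sequences came from RefSeq (GRCm38.p6). Library totals of 4313599 to 10444126 counts set the precision.

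Genes were kept with filterByExpr (minimum count 10, total 15), scaled by TMM and tested with edgeR 4.0.16 (R 4.3.3), by its quasi-likelihood test on group and clone over all 16 libraries. P-values were adjusted by Benjamini-Hochberg over the 12742 genes tested, and a call is an adjusted p under 0.05. Clone differences were interaction terms in a model with 8 group-by-clone means. SEs were derived from the F statistic (absolute log2 change over root F); log2 CPM had 2 as its prior count. DESeq2 1.42.0, other scalings and filters, no clone covariate, a replicate block, each clone alone and each library left out were alternatives. The procedure was tested on simulated data. Libraries of a pair differed more than counting error allows (chi-square over its degrees of freedom, 4.36 to 67.2), and all were kept.

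The members and gene lists were chosen with earlier results of these data known. All 9 members are named. Of each pathway list, the called genes are named, up to 4 a comparison by size of change, and some of them are not reported here; of the ERK list, the 2 largest rises at 4h; for likeness, the 3 nearest genes of at least 50 mean counts to the 2 called members and to Uhrf1, next by smallest p.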

Additional observations from a re-analysis of the deposited data

Results flagged for a closer look

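Changes that differed between the clones, by the interaction test given above, were found for 3 genes. For Dnmt3l the clone 8 change minus the clone 4 change was -1.31 at 2h against 0h, -0.70 at 4h against 0h and -1.07 at rev against 4h. For Dnmt3a it was -1.02 at 4h against 0h and 0.75 at rev against 4h, and for Tet3 it was -1.08 at 4h against 0h.

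In 3 of 36 groups of 4 libraries, 1 library lay far from the other 3, where chance gives about 5%. Uhrf1 at rev was at 206 CPM in clone 8 replicate 2 and at 173, 168 and 171 in the others. Tet1 at rev was at 418 CPM in clone 8 replicate 1 and at 322, 329 and 325 in the others. That library had the largest share of counts in the features over 1%. Tet3 at 2h was at 18.7 CPM in clone 4 replicate 2 and at 14.7 in each of the others.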

How the results depend on the processing

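The members called numbered 1 at 2h and 1 at 4h against 0h, 1 at 4h against 2h, 0 in the 3 rev comparisons, 4 for clone level, and 1, 3 and 2 for clone differences at 2h, 4h and rev. With no filter on low counts there were 2, 2 and 2 in the first 3, then 3, 1 and 2 at rev against 4h, 0h and 2h, and 2 for the clone difference at 2h. Library totals gave 0 at 2h against 0h, 0 at 4h against 2h, 2 for clone level and 0 for the clone difference at 4h. Without a clone covariate 4h gave 0 against 0h and 0 against 2h. At 4h against 2h an adjusted p under 0.01 and DESeq2 each gave 0, and DESeq2 gave 1 at rev against 4h and 1 against 2h. Without the features over 1% of counts the clone difference at 2h was 2. Clone 4 alone gave 3 at 4h against 0h, 4 at 4h against 2h, 3 at rev against 4h and 2 at rev against 0h. Clone 8 alone gave 2 at 2h against 0h, 3 at 4h against 0h, 2 at rev against 4h and 1 at rev against 0h, and Dnmt3a at 4h against 0h was reversed there (-0.40, edgeR adjusted p 0.0206). Leaving out each library gave 1 to 2 at 4h against 0h, 0 to 2 at 4h against 2h, 0 to 1 at rev against 4h, 1 to 2 for the clone difference at 2h, 1 to 3 at 4h and 1 to 4 at rev.

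Replicate numbers within a clone did not pair libraries across groups (r of -0.284 to 0.198, median -0.0249 in clone 4 and -0.0714 in clone 8). With a replicate block 0 members were called at 4h against 2h (Dnmt3l, edgeR adjusted p 0.071), and the other members' calls were unchanged.

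Of the alternative values for single members, 2046 kept their side of the threshold, 105 of them with a changed sign but no call under either setting. Another 46 lost a call and 49 gained one. In 1 more, Dnmt3a at 4h against 0h in clone 8 alone, an uncalled value became a call with the opposite sign. Of 1374 for 55 called pathway changes, 277 lost the call and 0 were reversed. With library totals the share of calls that were higher went from 46.9% to 15.8% at rev against 4h and from 55.9% to 78% at 2h against 0h. Tdg and Tet3, the least counted members, limit what their tests can resolve.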
